A study of Danio rerio with 4 samples.

Results

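The zinc finger protein CTCF recognises a long DNA motif and, together with cohesin, holds the bases of chromatin loops in vertebrate genomes. Regions bound by it in a population of cells appear as peaks of sequenced DNA, and each called peak carries a score by which calls can be ranked from low to high. The low-scoring CTCF peaks of zebrafish embryos were chosen by the deposited score in the list called on combined replicates, as the peaks on chromosomes 1 to 25, except chromosomes 4, 18 and 22, with a score below 200. They numbered 2321 of the 32075 peaks on these 22 chromosomes (7.24%, 95% exact binomial interval 6.95 to 7.53%) and of the 37625 peaks in the whole list. The other 29754 peaks on the same chromosomes, with scores of 200 or more, are called higher-scoring here. Of these, 7979 at or above the upper quartile of all deposited scores are called strong, and the 21775 from 200 up to that quartile middle-scoring. These names refer to the score only, whose scale is not stated.

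Occupancy was measured by ChIP-seq in whole embryos of the AB strain at 24 hpf (hours post fertilisation), a stage at which many tissues are already forming. The labels give the genotype as ctcf{HPSH}, the embryos came from crosses of ctcf HA/wt fish, and an anti-HA antibody was used for precipitation. Of the 4 samples, 2 were ChIP libraries and 2 were input DNA, which was taken from the same replicates before precipitation and shares their genotype. All 4 samples were fixed in 1% formaldehyde for 15 min. Each replicate was made from 2000 embryos, so that all cell types of the embryo were mixed, and embryos from these crosses may carry the tagged allele on 1, both or neither chromosome.

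The replicates had been combined before the peaks were called, so a peak has 1 value and no value per library, and the sequencing depth is unknown. No p-values are given for this reason. Spread is the SD over the 22 chromosomes, and intervals on shares are 95% exact binomial (Clopper-Pearson) intervals, which cover counting error only and treat peaks as independent. Neighbouring peaks share sequence context, so these intervals are too narrow. The score chose the peaks, and width and summit come from the same signal as the score, so all 3 are described without a test.

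Scores of the low-scoring peaks ran from 88 to 199, with a median of 172 and quartiles of 149 and 187. Higher-scoring peaks had a median of 386 and quartiles of 293 and 550. The numbers rose toward the bound, with 123 peaks scoring below 120, 8 of them below 100, and 848 (36.5%) scoring 180 to 199. The bound of 200 cut through a continuous range. The 448 peaks scoring 190 to 199, just inside it, had a median width of 231.5 bp and a median summit offset of 9.80% of the width from the middle. The 587 peaks scoring 200 to 209, just outside it, had 234 bp and 10.75%. These values show no step at the bound.

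The low-scoring peaks were narrow, but not the narrowest of the list. They had a median width of 248 bp (quartiles 216 and 316 bp), against 264 bp (226 and 356 bp) in higher-scoring peaks. Within single chromosomes the median of low-scoring peaks was the smaller on 21 of 22, by a mean of -14.3 ± 11.2 bp (SD, n = 22 chromosomes). The direction depended on the comparison. Against middle-scoring peaks, whose median was 242 bp, low-scoring peaks were wider on 14 chromosomes, narrower on 6 and equal on 2, by a mean of 6.80 ± 11.2 bp, which is within the spread over chromosomes.

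Width thus did not follow the score evenly. In score bands from low to high, the median width was 266 bp for scores of 88 to 119, 261 bp for 120 to 139, 262.5 bp for 140 to 159, 252 bp for 160 to 179 and 233 bp for 180 to 199. It was lowest, at 224 bp, in both bands between 200 and 299, and reached 269 bp for 400 up to the upper quartile and 429 bp for 800 or more. The plot of width by score shows this trough between 200 and 299. Within the low-scoring peaks, width and score were weakly and negatively related (Spearman's rho = -0.140 across 2321 peaks, which share libraries).

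Both extremes of width were uneven as well. Widths of 200 to 210 bp, next to the smallest width in the list, were found in 18.1% of low-scoring, 11.2% of higher-scoring and 15.2% of middle-scoring peaks. By score, this share was 7.32% below 120, 23.9% for 180 to 199, 32.3% for 200 to 249 and 27.6% for 250 to 299, and it fell to 0.755% for 400 up to the upper quartile. Of these bands, 200 to 249 thus had the highest share. Directly beside the bound the share was 24.6% for scores of 190 to 199 and 26.6% for 200 to 209. Only 2.84% of low-scoring peaks (66) were wider than 500 bp, against 12.5% of higher-scoring and 7.36% of middle-scoring peaks. On the 2 sides of the bound this share was alike, at 3.42% for 180 to 199 and 3.45% for 200 to 249. The 3 widest low-scoring peaks measured 983 bp on chromosome 7 (10658050 to 10659032, danRer10, score 181), 890 bp on chromosome 1 (28604807 to 28605696, score 174) and 833 bp on chromosome 11 (22035113 to 22035945, score 177). The widest of all, in contrast, was a higher-scoring peak of 4101 bp.

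**Figure D1:**
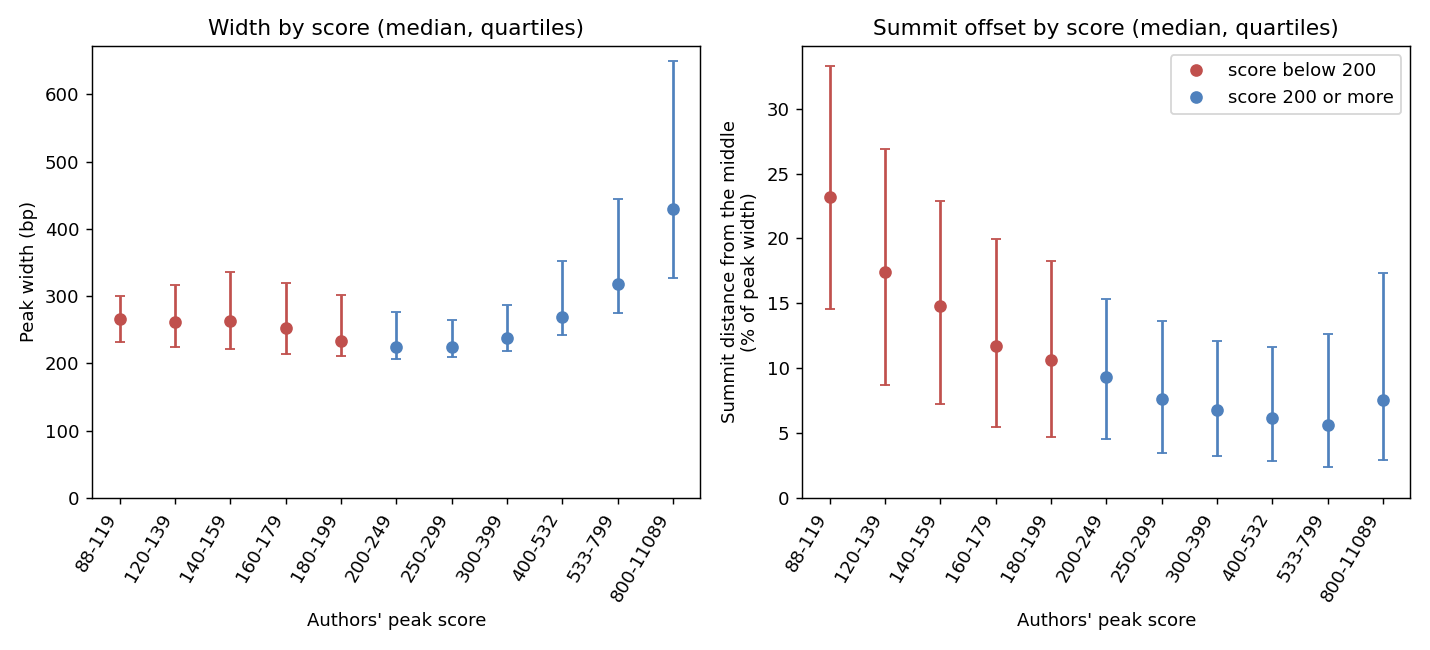
Width in bp (left) and distance of the summit from the middle in % of the peak's width (right), by band of the authors' score. Points are medians and bars quartiles over the peaks of a band, with scores below 200 in red and higher scores in blue. Median width is lowest, at 224 bp, for scores of 200 to 299, and the summit offset is 23.2% in the lowest band.

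The summits of low-scoring peaks, the positions of strongest signal within them, lay far from the middle more often than those of other peaks. Their median distance from the middle was 12.9% of the width (quartiles 5.90 and 21.3%), or 32 bp, against 6.87% (quartiles 3.05 and 13.2%), or 18 bp, in higher-scoring peaks. The median was larger in low-scoring peaks on 22 of 22 chromosomes, by a mean of 6.29 ± 1.95 percentage points (SD). The offset had no preferred side, since 51.5% of low-scoring summits and 50.2% of higher-scoring ones lay before the middle in the direction of rising coordinates.

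A summit more than 25% of the width from the middle is called off-centre here. Off-centre summits were found in 390 low-scoring peaks, or 16.8% (interval 15.3 to 18.4%), against 1822 higher-scoring peaks, or 6.12% (5.85 to 6.40%). The share was higher in low-scoring peaks on 22 of 22 chromosomes. In score bands from low to high, off-centre summits made up 46.3% of peaks scoring 88 to 119, 29.4% for 120 to 139, 19.7% for 140 to 159, 13.3% for 160 to 179 and 9.55% for 180 to 199. They made up 4.29% for 250 to 299 and 9.21% for 800 or more. The lowest band therefore had the highest share, and the share rose again among the strongest peaks, whose median width was 429 bp.

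The size of this contrast depended on the width of the peaks. In wide peaks of any score the summit was often off-centre. At 350 bp or more this held for 41.4% of 430 low-scoring peaks (interval 36.7 to 46.2%) and 22.3% of 7725 higher-scoring peaks (21.3 to 23.2%). In the narrowest class, of 200 to 219 bp, it held for 9.26% of low-scoring and 1.296% of higher-scoring peaks. At 220 to 269 bp, it held for 49 of 701 low-scoring peaks (6.99%) and 10 of 9915 higher-scoring peaks (0.101%). At 270 to 349 bp it held for 100 of 510 low-scoring peaks (19.6%) and 17 of 6327 higher-scoring peaks (0.269%). Most peaks of medium width with an off-centre summit were thus low-scoring.

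Between 220 and 349 bp, off-centre summits occurred in 149 of 1211 low-scoring peaks (12.3%, interval 10.5 to 14.3%) and in 27 of 16242 higher-scoring peaks (0.166%, 0.110 to 0.242%). In score bands from low to high, the share in this width range was 46.9% for 88 to 119, 26.7% for 120 to 139, 11.2% for 140 to 159, 5.77% for 160 to 179 and 2.71% for 180 to 199. It was 1.34% for 200 to 249 and 0.142% for 250 to 299, and of the strong peaks of this width 1 had an off-centre summit. The fall was gradual and passed through the bound of 200 without a break.

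**Figure D2:**
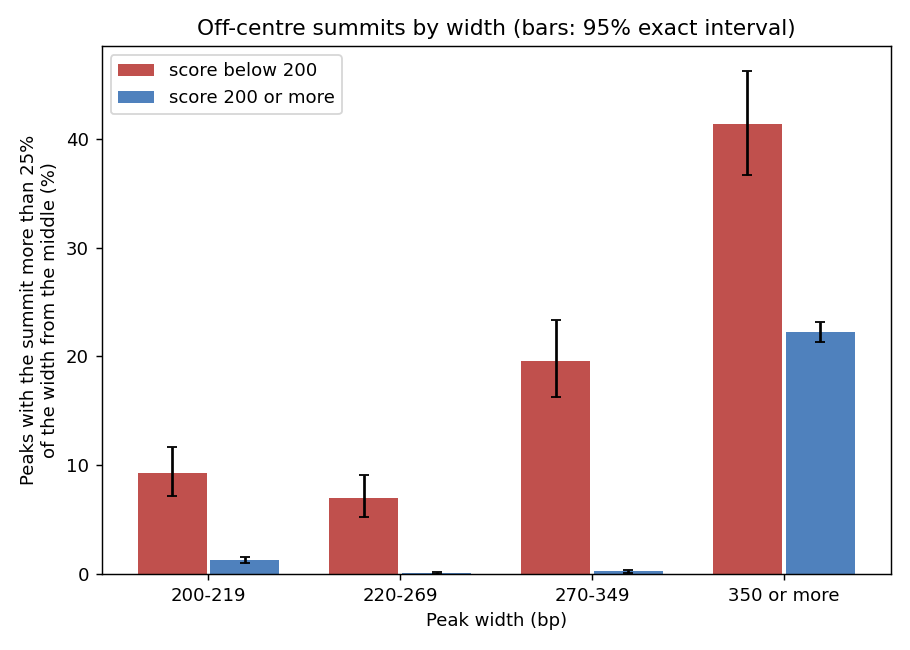
Share of peaks, in %, whose summit lies more than 25% of the width from the middle, by peak width in bp, for scores below 200 (red) and scores of 200 or more (blue). Error bars are 95% exact binomial intervals. At 270 to 349 bp the share is 19.6% in low-scoring and 0.269% in higher-scoring peaks.

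Some summits lay almost at the border of the peak. A summit within 50 bp of an edge occurred in 131 low-scoring peaks (5.64%) and 61 higher-scoring peaks (0.205%). All 131 were among the 390 off-centre low-scoring peaks, which follows from the definitions, since no peak was narrower than 200 bp. The 5 lowest-scoring peaks of the 22 chromosomes were all off-centre. The lowest score, 88, belonged to a peak of 223 bp on chromosome 2 (19113060 to 19113282), whose summit was its base 19. A peak of 215 bp on chromosome 3 (28434992 to 28435206, score 92) had its summit at base 10, and a peak of 220 bp on chromosome 25 (2908520 to 2908739, score 92) at base 14. The remaining 2 lay on chromosome 19 (19578428 to 19578697, score 89, summit at base 235 of 270) and chromosome 12 (30226772 to 30226982, score 91, summit at base 165 of 211). None of these 5 had another peak within 2 kb.

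Off-centre summits lay about as often toward the nearest peak as away from it. Among off-centre low-scoring peaks with another peak within 2 kb, the summit lay on the side of the nearest peak in 50 of 101 (49.5%, interval 39.4 to 59.6%). Among those without such a neighbour it did so in 151 of 289 (52.2%, 46.3 to 58.1%). Off-centre and other low-scoring peaks also had similar shares with a neighbour within 2 kb, 25.9% (interval 21.6 to 30.5%) and 26.3% (24.3 to 28.3%). They differed in width, with medians of 334.5 and 240 bp, and in score, with medians of 155 and 175.

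Strong peaks were somewhat farther from low-scoring peaks than from others. The median distance between centres was 46165 bp for low-scoring peaks (quartiles 15300 and 113671 bp). It was 38301 bp for higher-scoring peaks and 41206 bp for the middle-scoring among them, in both cases to the nearest strong peak other than the peak itself. Per chromosome, the medians of low-scoring peaks ran from 22472 to 71773 bp, and those of higher-scoring peaks from 28852 to 58596 bp, so that the ranges overlapped. Within chromosomes low-scoring peaks were the farther on 19 of 22, by 7978 ± 10186 bp (mean and SD). Against middle-scoring peaks they were the farther on 15 of 22, by 5128 ± 9849 bp. The difference between the overall medians was 7864 bp, and it fell to 4532 bp among peaks of 200 to 250 bp and to 1898 bp with strong peaks taken from a score of 400.

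Within the low-scoring set the distance followed no steady order. In score bands from low to high, its median was 59060.5 bp for 88 to 119, 40955.5 bp for 120 to 139, 46063 bp for 140 to 159, 47845.5 bp for 160 to 179 and 46943.5 bp for 180 to 199 (Spearman's rho of score and distance = -0.0116 across 2321 peaks). These bands differed by more than the low-scoring peaks as a whole differed from the others. This held only through the lowest band, of 123 peaks with quartiles of 13354 and 152410 bp. The remaining low-scoring bands ran from 40955.5 to 47845.5 bp. Above the bound the distance shortened, from medians of 44601 bp for scores of 200 to 249 to 38064 bp for 400 up to the upper quartile and 26878 bp for 800 or more. Their surroundings held as many peaks as those of others, with a median of 3 other peaks within 50 kb on either side in both sets.

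Few peaks of any score flanked a strong one closely. A strong peak lay within 2 kb of 112 low-scoring peaks (4.83%, interval 3.99 to 5.78%). This compared with 6.05% of higher-scoring peaks (5.78 to 6.32%) and 5.79% of the middle-scoring among them. Within 10 kb the shares were 18.1% (interval 16.5 to 19.7%) in low-scoring and 21.5% in higher-scoring peaks. At the other extreme, 13.6% of low-scoring peaks and 10.2% of higher-scoring peaks were more than 200 kb from any strong peak. The low-scoring peak closest to a strong one, on chromosome 14 (45264678 to 45264887, score 183), was 342 bp from a peak scoring 568. The farthest, on chromosome 7 (35644513 to 35644884, score 176), was 988292 bp away and had no other peak within 50 kb.

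**Figure D3:**
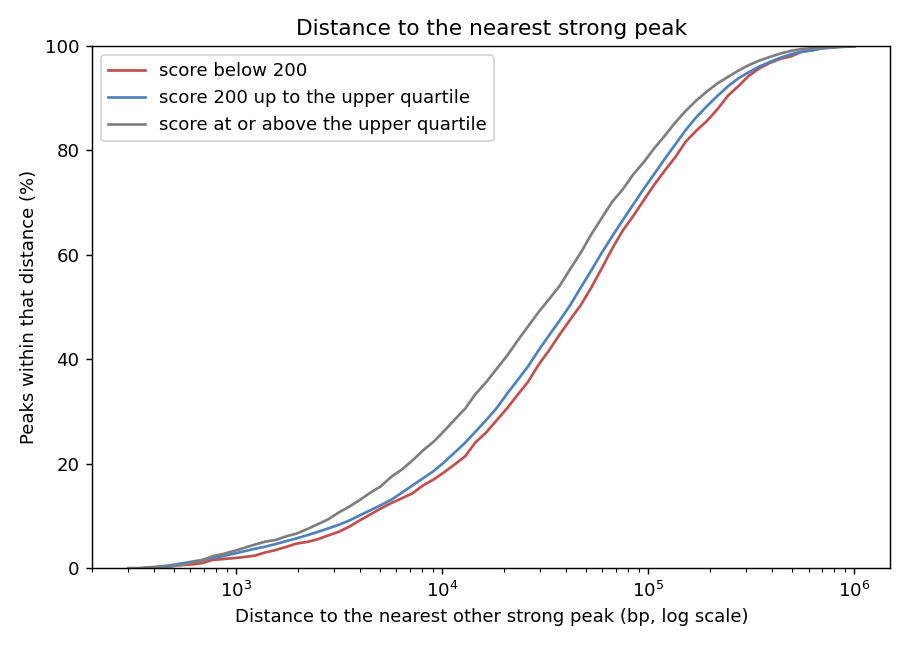
Cumulative share of peaks, in %, by distance to the nearest other strong peak, in bp on a log scale, for scores below 200 (red), middle-scoring peaks (blue) and strong peaks (grey). The red curve runs lowest over most of the range, with a median distance of 46165 bp against 41206 bp for the blue one and 30633 bp for the grey one.

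Although strong peaks were farther away, another peak of any score was close more often in the low-scoring set as a whole. This came mainly from scores of 140 to 179 and did not hold in the lowest score bands. A further peak lay within 2 kb of 608 low-scoring peaks (26.2%, interval 24.4 to 28.0%), against 22.2% of higher-scoring peaks (21.7 to 22.6%) and 22.5% of the middle-scoring among them. Beside the bound the share was 24.1% for scores of 190 to 199 and 26.2% for 200 to 209. The peaks just outside the bound thus had as high a share as the low-scoring set. Per chromosome, the share ran from 17.9 to 35.1% in low-scoring peaks and from 16.8 to 25.3% in higher-scoring ones. It was higher in low-scoring peaks on 19 of 22 chromosomes, by 3.89 ± 3.96 percentage points (mean and SD). The median distance to the nearest peak was 7198 bp and 8136 bp in low-scoring and higher-scoring peaks.

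The excess lay within 1 kb, where 16.7% of low-scoring peaks (interval 15.2 to 18.3%) and 12.6% of higher-scoring peaks (12.2 to 12.9%) had a neighbour. Peaks scoring 200 to 209, just outside the bound, had one there in 16.0% of cases. The nearest peak was 500 to 750 bp away for 7.37% of low-scoring peaks (interval 6.34 to 8.51%) and 4.99% of higher-scoring peaks (4.75 to 5.25%). For 1000 to 1500 bp the shares were 5.26% and 5.52%, and for 1500 to 2000 bp they were 4.22% and 4.09%, with overlapping intervals. When peaks with edges within 500 bp of each other were merged, the shares with a neighbour within 2 kb became 13.6% and 12.2%. The difference was then 1.42 percentage points. A merged peak kept its highest score, so a low-scoring peak joined to a higher-scoring one left the low-scoring set, which fell to 2012. The smaller difference is therefore partly set by the merging itself. Whether close calls are separate sites or parts of 1 bound region cannot be told apart from the list.

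The neighbours of low-scoring peaks had lower scores themselves. Among peaks with a neighbour within 2 kb, the nearest peak had a median score of 314.5 beside low-scoring peaks, against 364 beside higher-scoring peaks and 356 beside middle-scoring ones. The nearest peak was itself low-scoring for 86 of these 608 low-scoring peaks (14.1%), against 7.92% for higher-scoring peaks. At any distance, the nearest peak was low-scoring for 10.3% of low-scoring peaks (interval 9.05 to 11.6%) and 7.16% of higher-scoring peaks (6.86 to 7.45%). This share was the greater for low-scoring peaks on 18 of 22 chromosomes. Beside the bound it was 8.04% for scores of 190 to 199 and 9.71% for 200 to 209, with overlapping intervals. The contrast was thus not seen there. The median score of the nearest peak at any distance was lower for low-scoring than for higher-scoring peaks on 16 of 22, by -19.0 ± 20.6 (mean and SD). It was 367 both for scores of 88 to 119 and for 120 to 139, the same as for middle-scoring peaks. For 140 to 159, 160 to 179 and 180 to 199 it was 336.5, 333 and 345.5. A neighbour within 2 kb that was low-scoring was counted from both sides.

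Chains of peaks whose neighbouring centres lay within 2 kb are called clusters. Low-scoring peaks made up 6.89% of single peaks (1713 of 24874), 7.82% of peaks in clusters of 2 (402 of 5140), 8.97% in clusters of 3 (116 of 1293) and 13.6% in clusters of 4 (73 of 536, interval 10.8 to 16.8%). In clusters of 5 the share was 8.00% (12 of 150), with a wide interval that reaches 13.6%. It was 6.06% in clusters of 6 (4 of 66, interval 1.68 to 14.8%) and 6.25% in those of 7 or more (1 of 16, 0.158 to 30.2%). The share thus showed no further rise beyond clusters of 4. The intervals overlap that of clusters of 4, so whether it falls there cannot be told. Of 608 clusters of 3 or more peaks, 176 (28.9%) held a low-scoring peak. These peaks were at the edge of the cluster in 60.2% of cases, against 58.9% for the higher-scoring peaks in such clusters, a difference of little more than 1 percentage point. Clusters of 3 or more held 8.88% of low-scoring and 6.23% of higher-scoring peaks. In the low-scoring bands, from low to high, the share was 12.2%, 8.18%, 10.1%, 10.6% and 6.72%. It was 7.69% for scores of 200 to 249 and 8.52% for 200 to 209, so the excess did not hold for 180 to 199.

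Among the 2570 clusters of 2 peaks, 342 joined a low-scoring peak to a higher-scoring one and 30 joined a pair of low-scoring peaks. The higher-scoring partners had a median score of 359 (quartiles 276 and 501.5), and 69 of 342 (20.2%) were strong. In clusters of 2 that held a low-scoring peak, the centres were a median of 892.5 bp apart, against 959.5 bp in those that held none. Most of these close companions were thus middle-scoring peaks, as were most higher-scoring peaks anywhere (21775 of 29754).

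CTCF peaks of all scores were denser toward the ends of chromosomes, and the low-scoring ones less so. Within 2 Mb of an end lay 309 low-scoring peaks (13.3%, interval 12.0 to 14.8%), against 5023 higher-scoring peaks (16.9%, 16.5 to 17.3%). The share was lower for low-scoring peaks on 18 of 22 chromosomes, by a mean of -3.67 ± 4.59 percentage points (SD). Against middle-scoring peaks, of which 15.3% lay there, it was lower on 15 of 22, by -2.12 ± 4.59 points. By score, the share was 15.4% for 88 to 119, 13.1% for 180 to 199, 14.3% for 200 to 249 and 14.9% for 300 to 399. It was 17.0% for 400 up to the upper quartile and 23.6% for 800 or more, so it rose mainly from a score of 400 up. Among peaks of 200 to 250 bp the difference in this share was -1.84 points, against -3.57 points for all widths. The density at the ends was 1.91 ± 0.730 times that of the rest of the chromosome for low-scoring peaks and 2.496 ± 0.397 times for higher-scoring peaks (SD, n = 22 chromosomes). Per chromosome this ratio ran from 0.484 to 3.68 for low-scoring peaks and from 1.95 to 3.31 for higher-scoring ones. On chromosomes 1, 11 and 14 low-scoring peaks were sparser at the ends than in the rest, with ratios of 0.914, 0.484 and 0.673.

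Low-scoring peaks still grew denser toward the ends. From the end inward, the zones within 0.25 Mb, of 0.25 to 0.5 Mb, of 1 to 2 Mb, of 5 to 10 Mb and beyond 15 Mb held 5.82, 3.64, 2.91, 2.25 and 1.504 low-scoring peaks per Mb. Higher-scoring peaks numbered 92.2, 69.9, 45.5, 27.8 and 17.4 per Mb in the same zones. As a share of all peaks, low scores made up 5.94% in the outermost zone (interval 4.60 to 7.52%) and 6.01% at 1 to 2 Mb. They made up 7.46% at 5 to 10 Mb and 7.95% in the innermost zone (7.42 to 8.51%). The low-scoring peak nearest to an end lay on chromosome 15 (47745851 to 47746205, score 197), 2.27 kb from the end of the last peak there, in a cluster of 2 peaks.

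**Figure D4:**
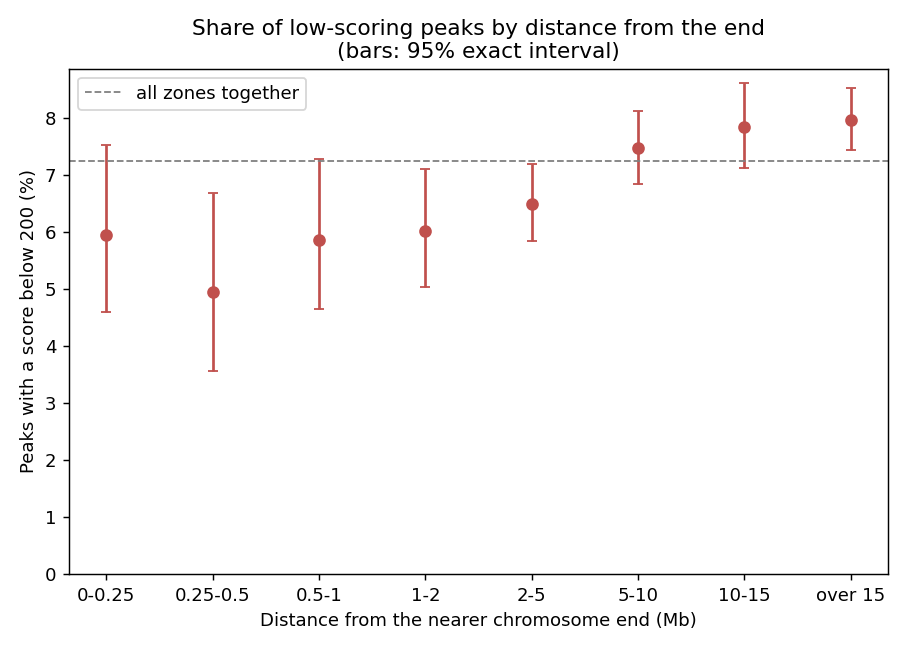
Share of peaks with a score below 200, in %, by distance from the nearer chromosome end in Mb, over 22 chromosomes. Points are shares, bars 95% exact binomial intervals, and the dashed line is the share in all zones together, 7.24%. The 5 zones within 5 Mb of an end lie below the line and the 3 zones farther in lie above it.

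Low-scoring peaks were spread over all 22 chromosomes, from 72 on chromosome 13 to 152 on chromosome 15. They made up 7.24 ± 1.08% of a chromosome's peaks (mean and SD), with a median of 7.24%. The lowest shares were 5.23% on chromosome 13, 6.14% on chromosome 21 and 6.15% on chromosome 20. The highest were 10.5% on chromosome 15 (interval 8.97 to 12.2%), 8.43% on chromosome 9 and 8.15% on chromosome 7. The intervals of 2 chromosomes, 13 and 15, did not include the pooled 7.24%. Chromosome 16, with the most peaks of any at 1827, had 137 low-scoring ones (7.50%).

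The high share of chromosome 15 did not come from a single stretch. Low scores made up 8.97% of its peaks within 2 Mb of an end, 10.1% at 2 to 10 Mb and 11.4% farther in, against 5.66%, 6.87% and 7.76% on the other 21 chromosomes. At the ends the intervals overlapped, at 5.56 to 13.5% and 5.04 to 6.33%. Of its 47 whole 1 Mb bins, 31 (66.0%) had a share above the pooled one, against 43.9% of 1115 bins elsewhere, and no bin held more than 9. Chromosome 15 was picked for its high share, so shares above those elsewhere are largely set by that choice. These values describe only how the low scores were spread along the chromosome. Strong peaks made up 22.2% of its peaks, near the lower end of the range of 21.5 to 28.5% on the others. Chromosomes 9 and 7, next in the share of low scores, had 21.5% and 21.7%. Across the 22 chromosomes, the shares of low-scoring and strong peaks were inversely related (Spearman's rho = -0.737, both being shares of the same peaks). Its low-scoring peaks were off-centre in 16.4% and had a median width of 239.5 bp, within the ranges of 7.06 to 22.2% and 231 to 272 bp over all 22. Without chromosome 15 the share was 7.08 ± 0.821%.

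Per unit of length, low-scoring peaks numbered 2.01 ± 0.413 per Mb and higher-scoring peaks 25.7 ± 3.21 per Mb (SD, n = 22 chromosomes). Chromosome 13 had the fewest low-scoring peaks, 1.39 per Mb, and chromosome 15 the most, 3.18 per Mb, followed by chromosome 25 with 2.95. Chromosomes dense in higher-scoring peaks tended to be dense in low-scoring ones (Spearman's rho = 0.578 across 22 chromosomes, which share libraries and differ in length).

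**Figure D5:**
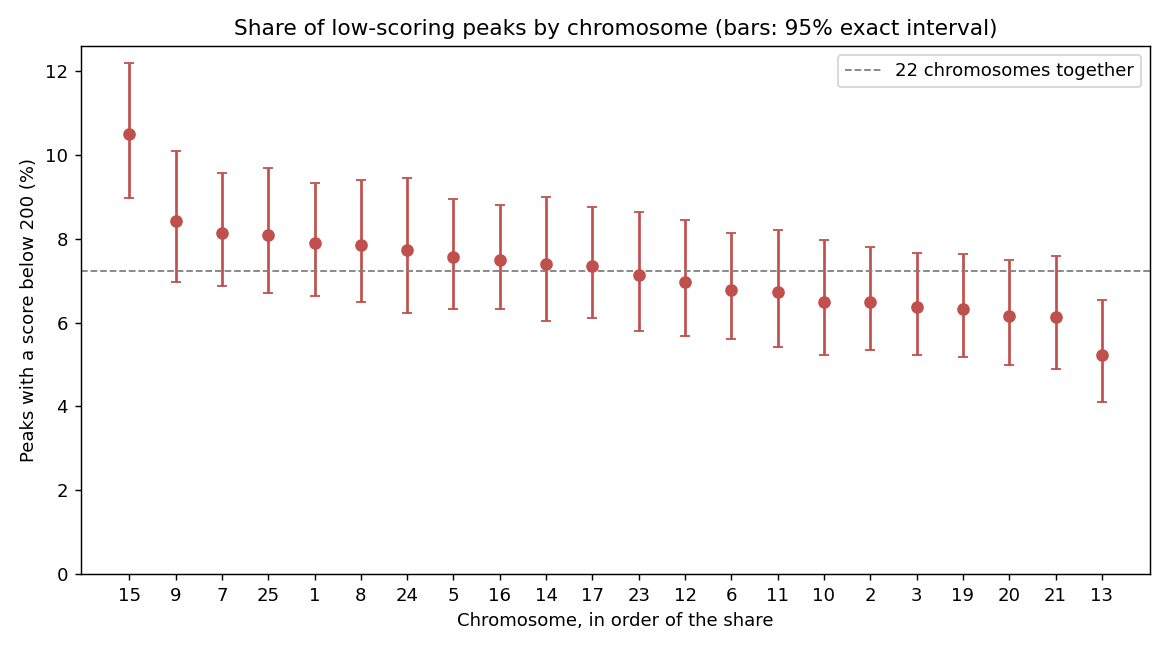
Share of peaks with a score below 200, in %, on each of 22 chromosomes in falling order. Points are shares, bars 95% exact binomial intervals, and the dashed line is the share over all of them, 7.24%. Chromosome 15 lies highest at 10.5% and chromosome 13 lowest at 5.23%.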

How the data were processed

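The deposited list is in narrowPeak format and was called on combined replicates, per the file headers. Coordinates are on danRer10, and MACS2 is listed among the tools with no role, per the submitters' processing notes. The score is a whole number deposited by the authors. Its scale, the calling threshold and the use of the input are not stated in the files or labels used here. Depth is unknown, so an absent peak shows only that none was called.

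Peaks were placed by their centres and positions are given from base 1. The last peak of a chromosome was taken as its right border, with assembly gaps left in. Sequence, genes and motifs were not analysed here. Distances run between centres on 1 chromosome. The functions were tested on simulated peaks. Computations used Python 3.11.15, numpy 2.4.6, pandas 2.3.3, scipy 1.17.1 and matplotlib 3.10.9.

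The peaks, score bounds and comparisons were chosen with earlier results of these data known. The peaks named singly are the 5 lowest-scoring, the 3 widest, the closest to and farthest from a strong peak, the nearest to an end and the longest run of consecutive ones. The chromosomes named are the 3 with the highest and the 3 with the lowest share, and others were named after their values were seen. Alternatives were other score bounds, comparison sets, distances and end widths, merging within 500 bp, like widths and leaving out chromosomes.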

Additional observations from a re-analysis of the deposited data

Results flagged for a closer look

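Outside the 22 chromosomes, 77 of 1085 peaks on unplaced scaffolds scored below 200 (7.10%, 95% exact binomial interval 5.64 to 8.79%), which entered none of the comparisons above. The share on the 22 chromosomes was 7.24%. On the chromosomes left out, low scores were held by 101 of 1117 peaks on chromosome 4 (9.04%, 7.43 to 10.9%), 132 of 1787 on chromosome 18 (7.39%) and 102 of 1561 on chromosome 22 (6.53%).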

How the results depend on the processing

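Of 161 alternatives, 153 kept the direction and moved by less than 1 SD over chromosomes (the number of peaks by less than 1.5 times). The offset in bp was judged by direction only. Most alternatives left out a single chromosome. For distance to a strong peak and share near ends, the SD exceeded the difference itself (10186 against 7864 bp, 4.59 against -3.57 points). For neighbours within 2 kb it nearly equalled it (3.96 against 4.04 points), so the rule was lenient for these results. A bound of 180 left 1473 low-scoring peaks, a mean share of 4.59% per chromosome and a width difference of -4 bp, and a bound of 220 gave a share of 10.8%. The count and shares change with the bound by construction. The width difference of -16 bp between medians turned to 6 bp against middle-scoring peaks and to 24 bp against scores of 250 up to 300. The latter alternative was chosen after seeing the data, and its comparison peaks had the lowest median width of any band, 224 bp, shared with 200 to 249. Both comparisons leave out the wide peaks of high score, and the reason for the change was not tested. Among widths of 200 to 250 bp the difference in median summit offset was 3.50 percentage points (6.05 over all widths), that in distance to a strong peak 4532 bp (7864 bp) and that in the share near ends -1.84 points (-3.57 points). With strong peaks taken from 800, the difference in distance was 27340 bp (160836 against 133496 bp), and from 400 it was 1898 bp (22231 against 20333 bp). Both medians changed with this bound, so these differences are not on a like scale, and the reason for their change was not tested. More than 2 Mb from an end the difference in distance was 5880 bp, and 3653 bp there against middle-scoring peaks, also chosen after seeing the data. Leaving out each chromosome in turn gave 6439 to 9192 bp for it, and 3.69 to 4.41 points for neighbours within 2 kb. No paired analysis was possible because replicates had been joined before calling, and for the same reason none could be left out.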

Other observations

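Some low-scoring CTCF peaks followed each other along a chromosome. Of the 2321, 392 (16.9%) stood in runs of 2 or more, and the other 1929 had a higher-scoring peak or the chromosome's border on each side. Low scores made up 7.24% of all peaks, but a peak enters a run through a neighbour on either side. The 16.9% can therefore not be set directly against that share. Whether runs were more or less frequent than the share gives was not tested. The longest run held 5 consecutive low-scoring peaks on chromosome 7 between 46425254 and 46498654, over 73.4 kb, with scores of 160, 183, 151, 146 and 188. Runs of 4 occurred on chromosome 7 (5414152 to 5678094) and chromosome 9 (50688407 to 50742145).

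In 1 Mb bins the low-scoring peaks had a median of 2, and 258 of 1162 bins (22.2%) held none. The fullest bins, chosen after their values were seen, were on chromosome 2 (14000001 to 15000000) with 12 of 58 peaks and chromosome 25 (1000001 to 2000000) with 11 of 73.

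The deposited scores were unevenly filled. Of the 112 whole numbers from 88 to 199, 105 occurred. The score 197 was held by 98 low-scoring peaks and 198 by 75, while 196 was held by 23 and 199 by 41. Just above the bound, the score 200 was held by 72 peaks.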
